A study of Rattus norvegicus with 8 samples.

Results

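The miR-17/92 and miR-106b/25 clusters were examined as 10 mature miRNAs: miR-17-5p, miR-18a-5p, miR-19a-3p, miR-20a-5p, miR-19b-3p and miR-92a-3p of miR-17/92, miR-106b-5p, miR-93-5p and miR-25-3p of miR-106b/25, and miR-20b-5p of the related X-linked cluster that also encodes miR-363. The 10 were chosen by name, but with earlier results of these data known, so counts over them are descriptions. They are 10 of the 758 rat miRNAs on the array and 10 of the 422 tested, a miRNA being tested if some group had it detected on each of its arrays. All 10 were detected on all 8 arrays. RNA came from the left medial vestibular nucleus (MVN), the brainstem nucleus that receives input from the balance organ of that ear, of male Sprague–Dawley rats aged 7 weeks. In the unilateral vestibular deafferentation (UVD) group the left labyrinth was opened and flushed with ethanol. In the sham operation (SO) group the surgical approach was the same, but the vestibule was neither opened nor injected, so that both groups lost the eardrum and the ossicles other than the stapes and both were anesthetized. Tissue was taken 4 h or 4 d after surgery from different animals, MVNs of 3 animals were pooled for each array, and each of the 4 groups had 2 arrays. No unoperated animals were analysed here.

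The dissected MVN is bulk tissue, in which more cells of a type and more RNA per cell cannot be told apart. The 7 neuron-enriched miRNAs listed as markers were each detected on all 8 arrays. All arrays were on 1 slide and were scanned once, with between 378 and 430 miRNAs detected per array and no saturated spots. The scanner software's own error of a member's total signal was between 7.19% and 9.54%. The UVD arrays lay in slide row 2 and the SO arrays in row 1, and the 4 h arrays lay in columns 3 and 4 and the 4 d arrays in columns 1 and 2. Position on the slide and group therefore cannot be told apart.

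A miRNA guides the silencing machinery to messenger RNAs that pair with its seed, the bases from 2 to 8 of the mature strand, so miRNAs with the same seed share many targets. The miR-17/92 cluster, also called oncomiR-1, is transcribed as a single primary transcript that is cut into 6 hairpins, and it is known to be activated by MYC and E2F factors, to be high in dividing cells and neural progenitors, and to repress the cell-cycle inhibitor p21 and the pro-apoptotic protein BIM. The miR-106b/25 cluster is its paralog in an intron of Mcm7, which encodes a subunit of the DNA replication helicase, and it has been linked to proliferation of adult neural stem cells.

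The mature sequences are shown because they sort the 10 miRNAs into 4 seed groups that cut across the clusters. All 10 were matched by name to the RefSeq table of mature rat miRNAs on the GRCr8 build, which held 685 of the 758 names on the array. Capitals mark the seed. The first group, with the miR-17 seed, takes its members from all of the clusters:
rno-miR-17-5p: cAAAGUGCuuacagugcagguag
rno-miR-20a-5p: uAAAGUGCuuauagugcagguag
rno-miR-106b-5p: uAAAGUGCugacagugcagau
rno-miR-93-5p: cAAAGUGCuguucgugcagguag
rno-miR-20b-5p: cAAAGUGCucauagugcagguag
The single member with the miR-18 seed differs from these within the seed:
rno-miR-18a-5p: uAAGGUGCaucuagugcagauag
The miR-19 seed is shared by a pair:
rno-miR-19a-3p: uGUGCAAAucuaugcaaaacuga
rno-miR-19b-3p: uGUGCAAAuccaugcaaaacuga
The miR-25/92 seed is held by the last miRNA of each main cluster:
rno-miR-92a-3p: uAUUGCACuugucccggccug
rno-miR-25-3p: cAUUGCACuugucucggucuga

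Several of these sequences are nearly the same. The pair of miR-19a-3p and miR-19b-3p differs by 1 base, and miR-17-5p, miR-20a-5p and miR-20b-5p differ from each other by 2 bases, counted as edit distance over the whole strand. Each miRNA was read by 2 probes, whose sequences were not analysed here, so a share of signal that came from a near-identical relative cannot be told apart from the miRNA's own.

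On GRCr8 the mature strands of miR-17/92 lie on chromosome 15, on the plus strand, from miR-17-5p at chr15:98587861-98587883 to miR-92a-3p at chr15:98588602-98588622, in a stretch that no other gene of the RefSeq table contains. Those of miR-106b/25 lie on the minus strand of chromosome 12, from miR-106b-5p at chr12:22157103-22157123 to miR-25-3p at chr12:22156652-22156673, inside Mcm7. The strand of miR-20b-5p is at chrX:137343239-137343261, in a separate cluster on the minus strand. In that X-linked cluster the table repeats miR-17-5p, miR-19b-3p and miR-92a-3p, so the signals of these 3 miRNAs can come from 2 loci each.

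Across the 4 groups, the 10 miRNAs had the same leading order. The mean normalized intensity, which is the total signal of all spots of a miRNA after quantile normalization between arrays, was highest in the UVD group at 4 d for 10 of 10. Among all 422 tested miRNAs this held for 25.4%. For miR-92a-3p the margin over the SO group at 4 d was small, 384.6 against 379.7, a log2 fold change of 0.019. It fell to -0.049 and -0.039 under the 2 scalings by a 75th percentile, and to -0.0074 with normexp background correction. Both 4 d means were above both 4 h means for 10 of 10, against 23.5% of all tested miRNAs. For 8 of 10 the SO group at 4 h had the lowest mean, and for miR-18a-5p and miR-19b-3p the UVD group at 4 h did. Replicate 2 of the UVD group at 4 d had the highest value of all arrays for 7 of 10. With that array left out of the same normalized values, the UVD group at 4 d had the highest mean for 8 of 10, against 27.5% of all tested miRNAs. When the other 7 arrays were normalized and fitted again, the mean log2 value at 4 d was higher in UVD than in SO for 7 of 10, the others being miR-19a-3p, miR-20a-5p and miR-19b-3p.

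**Figure D1:**
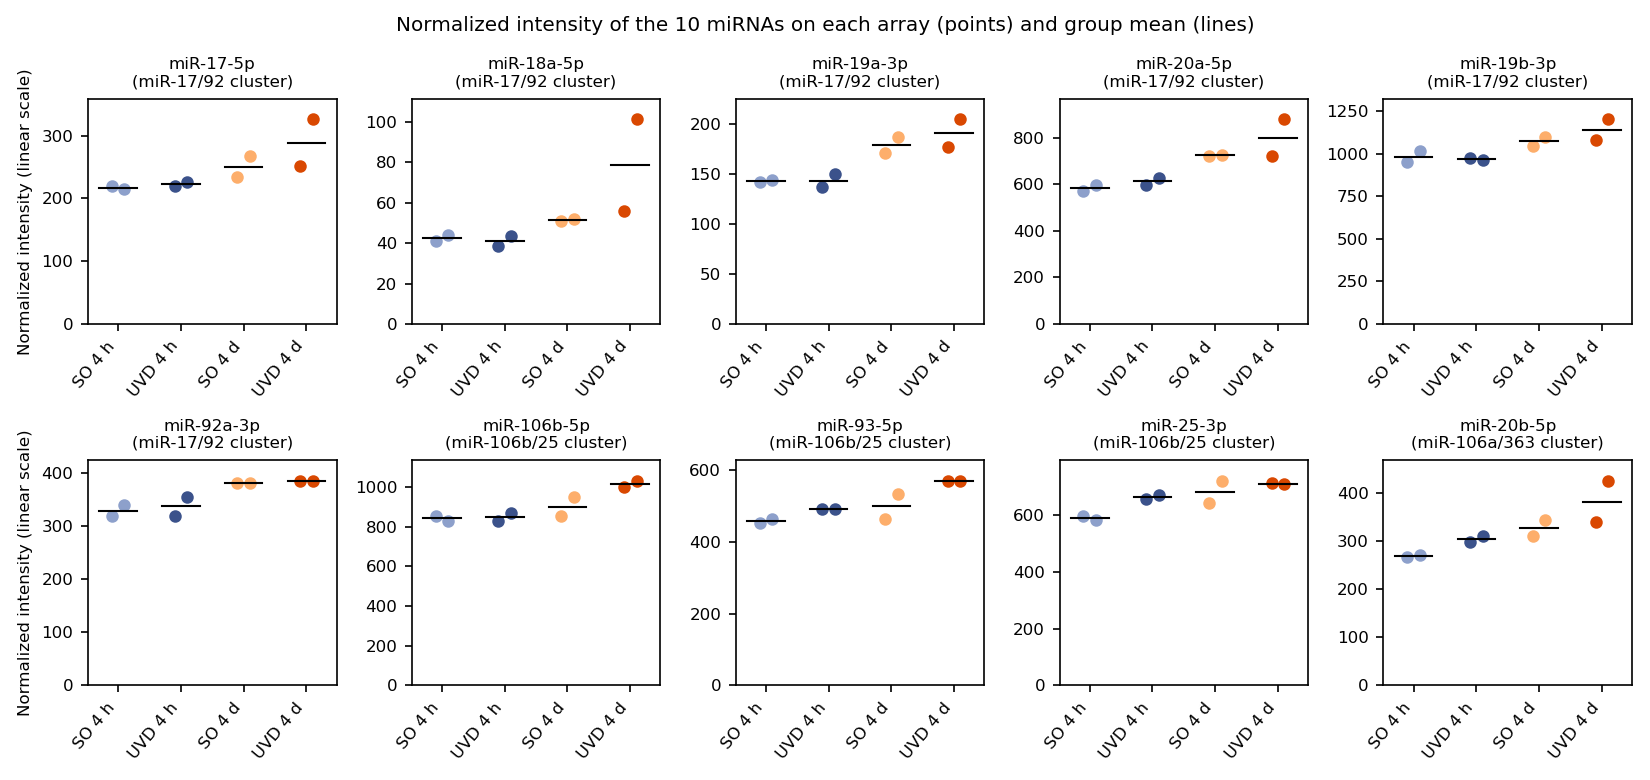
Normalized intensity (vertical axes, linear and starting at 0) of each of the 10 miRNAs on the 2 arrays of each group (points), with the group mean as a line. The group mean is highest in UVD 4 d in all 10 panels, and miR-18a-5p has the widest gap between replicates there, 56.0 and 101.

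The miR-17 seed members of miR-17/92 are described first. Fold changes are taken from differences of mean log2 values, so they are ratios of geometric means and can differ from the ratio of the linear means. The normalized intensity of miR-17-5p, the founding member of the family, in UVD rats was 219 and 226 at 4 h and 252 and 326 at 4 d, and in SO rats it was 219 and 214 at 4 h and 234 and 267 at 4 d. All 4 arrays at 4 d were above all 4 arrays at 4 h, while the UVD and SO arrays overlapped at 4 d and shared a value at 4 h. The mean at 4 d was 1.29-fold that at 4 h in the UVD group (log2 fold change 0.36, SE 0.14, adjusted p = 0.305) and 1.15-fold in the SO group (0.21, SE 0.14, adjusted p = 0.447).

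For miR-20a-5p, normalized intensity was 598 and 629 at 4 h and 721 and 880 at 4 d in the UVD group, and 571 and 598 at 4 h and 721 and 728 at 4 d in the SO group. The 4 h and 4 d arrays were again fully separated, and the lower UVD array at 4 d was level with the lower SO array. The difference between timepoints was 1.30-fold in the UVD group (log2 fold change 0.38, SE 0.10, adjusted p = 0.237) and 1.24-fold in the SO group (0.31, SE 0.10, adjusted p = 0.169).

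The member with its own seed, miR-18a-5p, showed the widest difference. Its normalized intensity in UVD rats was 38.6 and 43.3 at 4 h and 56.0 and 101 at 4 d, and in SO rats 41.1 and 44.1 at 4 h and 50.8 and 51.6 at 4 d. Both UVD arrays at 4 d were above both SO arrays, and the 4 h groups overlapped. The mean at 4 d was 1.84-fold that at 4 h in the UVD group (log2 fold change 0.88, SE 0.28, adjusted p = 0.282) and 1.20-fold in the SO group (0.27, SE 0.28, adjusted p = 0.614). The size of the first of these rested on UVD 4 d replicate 2, without which the log2 fold change was 0.45 (adjusted p = 0.250) and the difference from the SO group at 4 d was 0.12 (adjusted p = 0.994). With UVD 4 d replicate 1 left out instead, the values were 1.31 (adjusted p = 0.0152) and 0.99 (adjusted p = 0.0436), the lone array being assumed to vary like the other groups.

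The miR-19 pair also had its highest mean in the UVD group at 4 d. For miR-19a-3p the UVD group had 137 and 150.3 at 4 h and 177 and 205 at 4 d, and the SO group 142 and 145 at 4 h and 171 and 187 at 4 d. The 4 d arrays were all above the 4 h arrays, and UVD and SO overlapped at both timepoints. The 4 d mean was 1.33-fold the 4 h mean in the UVD group (log2 fold change 0.41, SE 0.10, adjusted p = 0.218) and 1.25-fold in the SO group (0.32, SE 0.10, adjusted p = 0.164), the smallest adjusted p of any member in each group. For miR-19b-3p the values were 976 and 962 at 4 h and 1077 and 1201 at 4 d in the UVD group, and 949.5 and 1014 at 4 h and 1046 and 1099 at 4 d in the SO group. These gave 1.17-fold in the UVD group (log2 fold change 0.23, SE 0.076, adjusted p = 0.282) and 1.09-fold in the SO group (0.13, SE 0.076, adjusted p = 0.396).

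The last member of miR-17/92, miR-92a-3p, was the only one of its cluster with a larger difference over time in the SO group than in the UVD group. It had 318 and 355 at 4 h and 385 on both arrays at 4 d in the UVD group, and 318 and 339 at 4 h and 379.7 on both arrays at 4 d in the SO group. Equal values arise because quantile normalization gives the same value to the same rank, so they do not show equal signals. Before normalization the UVD arrays at 4 d had signals of 458 and 391, and the SO arrays at 4 d 388 and 381. These signals also carry the brightness of the whole array. The 75th percentile of total gene signal was 125 and 109 on the same UVD arrays, and 107 and 99.6 on the SO arrays. How alike the replicates were therefore cannot be read from either set of values alone. The difference between timepoints was 1.14-fold in the UVD group (log2 fold change 0.19, SE 0.073, adjusted p = 0.304) and 1.16-fold in the SO group (0.21, SE 0.073, adjusted p = 0.174).

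In the miR-106b/25 cluster the median log2 fold change over time was smaller than in miR-17/92. It was 0.22 against 0.37 in the UVD group and 0.12 against 0.24 in the SO group, with single members of the 2 clusters overlapping in size. For miR-106b-5p and miR-93-5p the lower SO array at 4 d was level with the higher SO array at 4 h. Normalized intensity of miR-106b-5p was 829.5 and 868 at 4 h and 1000 and 1030 at 4 d in the UVD group, and 852 and 829.5 at 4 h and 852 and 949.5 at 4 d in the SO group. Both UVD arrays at 4 d were above the other 6 arrays. The 4 d mean was 1.20-fold the 4 h mean in the UVD group (log2 fold change 0.26, SE 0.072, adjusted p = 0.237) and 1.07-fold in the SO group (0.097, SE 0.072, adjusted p = 0.485). For miR-93-5p the UVD group had 491 on both arrays at 4 h and 571 on both at 4 d, and the SO group 452 and 464 at 4 h and 464 and 534 at 4 d. Its UVD arrays were above its SO arrays at both timepoints. The equal values within its UVD groups again come from equal ranks and do not show equal signals. The difference between timepoints was 1.16-fold in the UVD group (log2 fold change 0.22, SE 0.079, adjusted p = 0.298) and 1.09-fold in the SO group (0.12, SE 0.079, adjusted p = 0.43).

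The 3′ member of that cluster, miR-25-3p, had the smallest difference over time in the UVD group. Its values were 657 and 670.3 at 4 h and 712 and 709.6 at 4 d in the UVD group, and 598 and 581 at 4 h and 644 and 721 at 4 d in the SO group. The UVD arrays were above the SO arrays at 4 h and lay between them at 4 d. The 4 d mean was 1.07-fold the 4 h mean in the UVD group (log2 fold change 0.099, SE 0.070, adjusted p = 0.499) and 1.16-fold in the SO group (0.21, SE 0.070, adjusted p = 0.166).

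The X-linked relative miR-20b-5p behaved much as miR-20a-5p in order. It had 298 and 309 at 4 h and 339 and 425 at 4 d in the UVD group, and 267 and 271 at 4 h and 309 and 343 at 4 d in the SO group. The UVD arrays were above the SO arrays at 4 h, and the groups overlapped at 4 d. The 4 d mean was 1.25-fold the 4 h mean in the UVD group (log2 fold change 0.32, SE 0.12, adjusted p = 0.305) and 1.21-fold in the SO group (0.28, SE 0.12, adjusted p = 0.244).

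**Figure D2:**
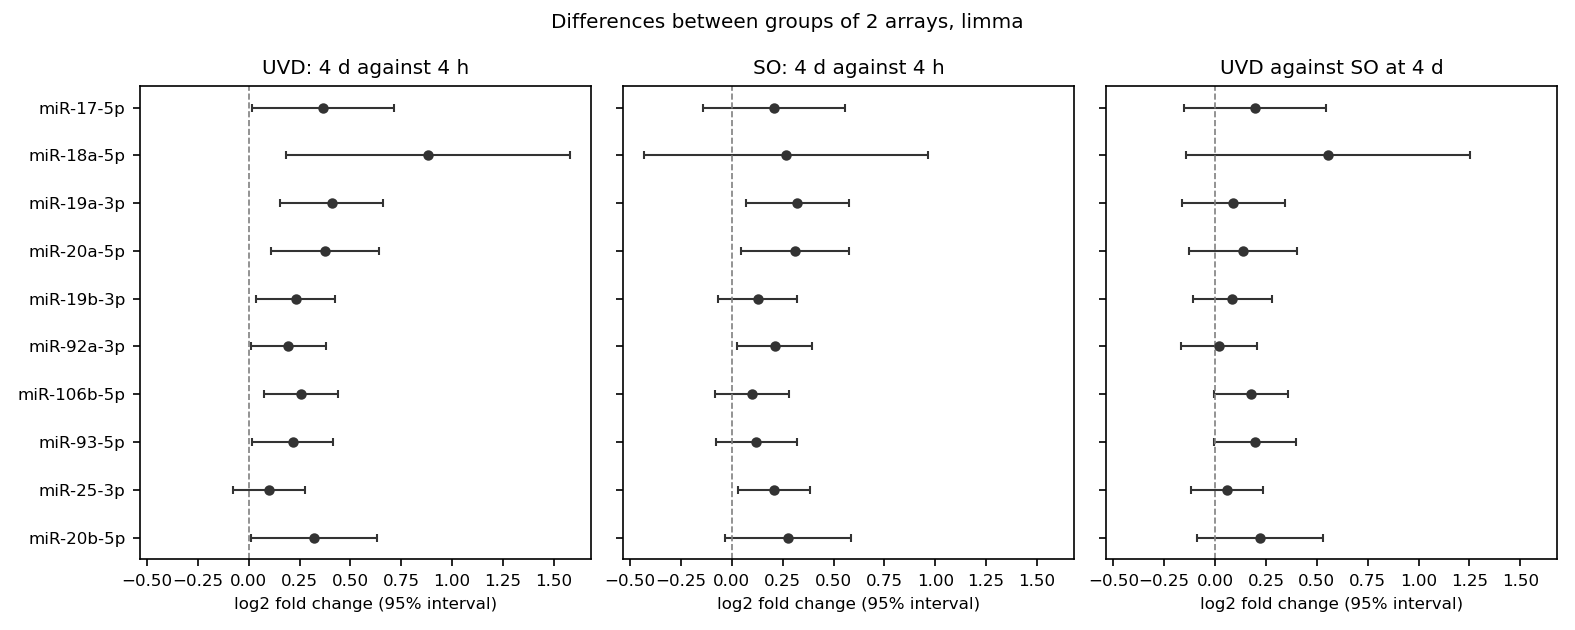
Log2 fold change (horizontal axes) of each miRNA with its 95% interval from limma, for 4 d against 4 h in the UVD group, the same in the SO group, and UVD against SO at 4 d. In the UVD panel 9 of 10 intervals lie above 0, with miR-25-3p the exception, against 4 of 10 in the SO panel and 0 of 10 at 4 d between the groups. No adjusted p was under 0.05.

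Taken over the 10 members, the mean was higher at 4 d than at 4 h for 10 of 10 in the UVD group, against 46.7% of all tested miRNAs. Their median log2 fold change was 0.29 (1.22-fold), and that of all tested miRNAs was -0.0099. The arrays of the timepoints did not overlap, with 4 d higher, for 10 of 10, against 19.0% of all tested miRNAs. By limma with Benjamini-Hochberg adjustment over 422 miRNAs, 0 of 10 passed an adjusted p of 0.05, the count of all tested miRNAs being 0 as well (0%). At an unadjusted p under 0.05, 9 of 10 were higher, against 9.0% of all tested miRNAs. By the methods' t-test on the total gene signal, 6 of 9 with a defined p were under the methods' looser p threshold, against 27.9% of all. After Benjamini-Hochberg 0 passed. The counts by this test, here and below, use p alone and leave out the fold-change condition that the paper set beside it. Without UVD 4 d replicate 1, miR-18a-5p and miR-20a-5p passed in limma (adjusted p = 0.0492 for the latter), among 10 miRNAs called in all in that setting.

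In the SO group, whose labyrinth was not opened, the mean was also higher at 4 d for 10 of 10, against 50.2% of all tested miRNAs. The median log2 fold change was 0.21 (1.16-fold), and that of all tested miRNAs was 0.0021. The arrays did not overlap for 8 of 10, with miR-106b-5p and miR-93-5p the exceptions, against 25.6% of all. In limma 0 of 10 passed, against 1.66% of all tested miRNAs. At an unadjusted p under 0.05, 4 of 10 were higher (miR-19a-3p, miR-20a-5p, miR-92a-3p and miR-25-3p), against 9.24% of all. By the methods' t-test 6 of 10 were under the methods' p threshold alone, against 35.1% of all, and 0 passed after Benjamini-Hochberg. With the authors' own normalized values in place of the total gene signal, miR-19a-3p passed in limma (log2 fold change 0.27, adjusted p = 0.031), among 19 miRNAs called in all.

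The time difference averaged over both operations used all 8 arrays, and here the main cluster separated most clearly. For 6 of 10 miRNAs, which were the 6 members of miR-17/92, the 4 arrays at 4 d were all above the 4 arrays at 4 h, against 5.45% of all tested miRNAs. Among the other 4 members 0 were separated in this way, although miR-20b-5p missed it by a shared value of 309. The mean was higher at 4 d for 10 of 10, against 50.7% of all, with a median log2 fold change of 0.24 (1.18-fold) beside 0.0040 for all tested miRNAs. In limma 0 of 10 passed, against 1.66% of all tested miRNAs, with adjusted p between 0.0693 for miR-19a-3p and 0.134 for miR-17-5p. All 10 were higher at an unadjusted p under 0.05, against 11.6% of all.

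The absence of calls in that comparison depended on the processing. Among the members, 5 passed after normexp background correction of the median spot signal (of 67 miRNAs in all), 4 with the authors' normalized values (of 41), 2 with an intensity trend in the variance (of 36), 1 when arrays were scaled by the 75th percentile of the whole array (of 18), 2 without SO 4 d replicate 1 (of 39) and 2 without UVD 4 d replicate 1 (of 8). The miRNA that passed under the first 4 of these settings was miR-19a-3p, with log2 fold changes between 0.24 and 0.41 (adjusted p between 0.0191 and 0.0453), and miR-20a-5p passed under the first 3.

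The 2 clusters differed in size of effect by their medians, as a description. Averaged over both operations, the 6 members of miR-17/92 had a median log2 fold change of 0.31 (1.24-fold, range 0.18 to 0.57), the 3 members of miR-106b/25 one of 0.17 (1.12-fold, range 0.15 to 0.18), and miR-20b-5p had 0.30. By seed, the 5 members with the miR-17 seed had a median of 0.29, miR-18a-5p had 0.57, the miR-19 pair 0.27 and the miR-25/92 pair 0.18. These differences between clusters and seed groups were not tested. All 20 probes of the 10 miRNAs had a higher mean at 4 d, with log2 fold changes from 0.12 to 0.62. The probe signals were scaled by the normalization factor of their miRNA, so the probes are not independent of its normalized value.

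UVD was compared with SO at each timepoint to ask whether loss of vestibular input set the members apart. At 4 h, 8 of 10 had a higher mean in the UVD group, against 46.2% of all tested miRNAs, with miR-18a-5p and miR-19b-3p the exceptions. The median log2 fold change was 0.036 (1.03-fold), beside -0.014 for all tested miRNAs. The arrays did not overlap, with UVD higher, for 3 of 10 (miR-93-5p, miR-25-3p and miR-20b-5p), against 22.5% of all. In limma 0 of 10 passed, against 0.474% of all, and 0 of 10 were higher at an unadjusted p under 0.05, against 5.69%. The nearest was miR-25-3p, with a log2 fold change of 0.17 (95% interval -0.0073 to 0.35, unadjusted p = 0.057, adjusted p = 0.299). By the methods' t-test 3 of 10 were under the methods' p threshold alone, against 32.3% of all, and 0 passed after adjustment. The largest member fold at 4 h was 1.13, for miR-20b-5p.

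At 4 d, 10 of 10 had a higher mean in the UVD group, against 41.9% of all tested miRNAs. The median log2 fold change was 0.16 (1.11-fold), beside -0.024 for all tested miRNAs, and single members ranged from 0.019 for miR-92a-3p to 0.56 for miR-18a-5p. The arrays did not overlap for 4 of 10 (miR-18a-5p, miR-92a-3p, miR-106b-5p and miR-93-5p), against 12.1% of all. For miR-92a-3p this rested on values tied within each group, and its log2 fold change changed sign under other scalings. In limma 0 of 10 passed, as did 0% of all tested miRNAs, and 0 of 10 were higher at an unadjusted p under 0.05, against 2.37% of all. By the methods' t-test 0 of 9 with a defined p were under the methods' p threshold alone, against 14.3% of all. The smallest adjusted p was 0.745. The 95% intervals of the 10 log2 fold changes reached from -0.17 to 1.25, and up to 0.55 among the members other than miR-18a-5p. Differences within each member's own interval were not resolved by 2 arrays per group. Without UVD 4 d replicate 2 the median was 0.037, with miR-106b-5p at 0.16 and miR-93-5p at 0.20. Without SO 4 d replicate 1 it was 0.096.

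Averaged over both timepoints, 10 of 10 had a higher mean in the UVD group, against 45.5% of all tested miRNAs, with a median log2 fold change of 0.11 (1.08-fold). In limma 0 of 10 passed, as did 0% of all. At an unadjusted p under 0.05, 1 of 10 was higher, against 3.55% of all. This was miR-93-5p (log2 fold change 0.15, SE 0.056, unadjusted p = 0.0426, adjusted p = 0.351). Without UVD 4 d replicate 2 the median was 0.030.

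The difference between the time changes, UVD minus SO, tests whether the 4 d to 4 h difference depended on the operation. It was above 0 for 8 of 10 members, against 52.1% of all tested miRNAs, and below 0 for miR-92a-3p and miR-25-3p, the pair with the miR-25/92 seed. The median was 0.092 on the log2 scale, with a range from -0.11 for miR-25-3p to 0.62 for miR-18a-5p. In limma 0 of 10 passed, against 0.237% of all, and 0 of 10 were above 0 at an unadjusted p under 0.05, against 4.03% of all. For miR-18a-5p the 95% interval was -0.37 to 1.60 (adjusted p = 0.59). The median was -0.015 without UVD 4 d replicate 2. It was -0.048 when arrays were scaled by the 75th percentile of miRNAs detected on every array, and -0.064 when the percentile was taken over the whole array, so its sign was not settled.

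The members varied together across arrays. Of the 45 pairs, Pearson's r over 8 arrays ranged from 0.56 for miR-18a-5p with miR-25-3p to 0.968 for miR-19a-3p with miR-20a-5p, with a median of 0.873. The median was 0.926 over the 15 pairs within miR-17/92, 0.882 over the 3 pairs within miR-106b/25 and 0.818 over the 27 pairs between clusters, while over all 88831 pairs of tested miRNAs it was -0.0043. These correlations are a description over arrays that share groups and a common normalization, and near-identical sequences can add to them. Each member's r with the mean of the other 9 was lowest for miR-25-3p (0.759) and highest for miR-20a-5p (0.973).

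**Figure D3:**
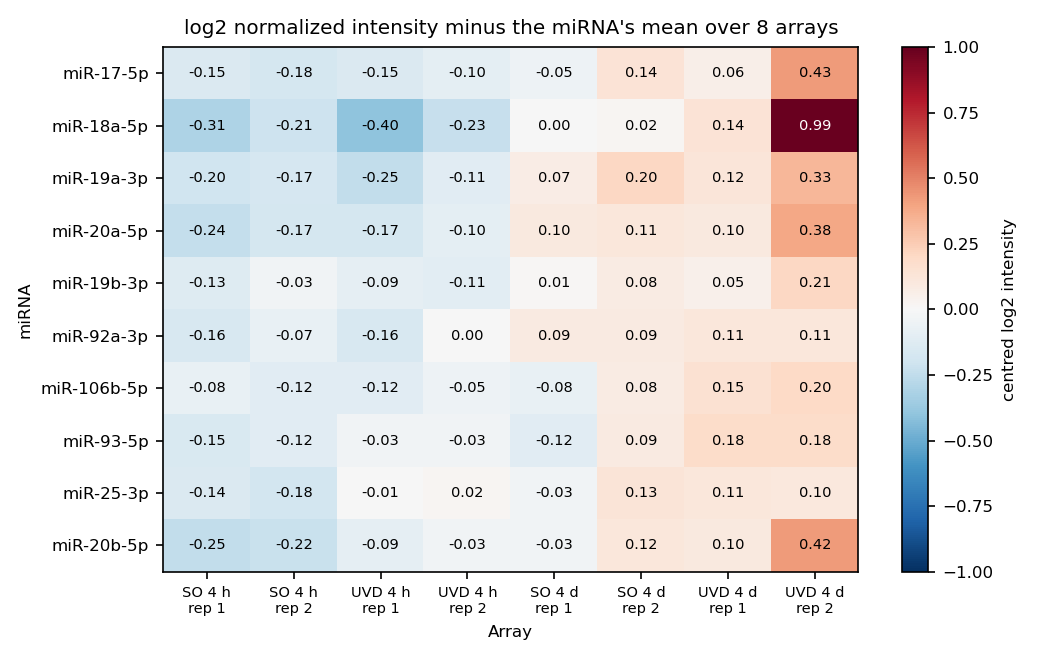
Log2 normalized intensity of each miRNA (rows) on each array (columns) after subtraction of the miRNA's mean over 8 arrays, printed in each cell. On the UVD 4 d arrays 19 of 20 values lie between 0.05 and 0.43 and miR-18a-5p reaches 0.99 on replicate 2, and only miR-25-3p on UVD 4 h replicate 2 is above 0 at 4 h.

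Averaged over the 10 members, the centred log2 value in the UVD group was -0.15 and -0.076 at 4 h but 0.11 and 0.34 at 4 d, and in the SO group it was -0.18 and -0.15 at 4 h but -0.0042 and 0.11 at 4 d. All 10 members were above their own mean on both UVD arrays at 4 d and on SO 4 d replicate 2, and 4 of 10 were on SO 4 d replicate 1. On the 4 h arrays 0 or 1 member was above its own mean. UVD 4 d replicate 1 and SO 4 d replicate 2 had nearly the same value, 0.11 each, while UVD 4 d replicate 2 lay above and SO 4 d replicate 1 below both.

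The other strands of the same hairpins were mostly undetected. Of 15 listed star strands and remaining miRNAs of the X-linked cluster, 10 were detected on no array, and among these were all star strands of the X-linked cluster. The 4 that were tested lay near the detection limit. The star strand miR-17-1-3p had group means between 3.40 (SO 4 d) and 4.55 (UVD 4 h), miR-20a-3p between 5.14 (SO 4 h) and 6.89 (SO 4 d), miR-19b-1-5p between 1.96 (UVD 4 h) and 5.36 (SO 4 d), and miR-106b-3p between 5.70 (UVD 4 d) and 6.80 (UVD 4 h). Their mean log2 values were higher at 4 d for 3 of 4 in the UVD group and 2 of 4 in the SO group. For miR-19b-1-5p the UVD arrays did not overlap, both lying higher at 4 d (log2 fold change 1.25, SE 0.53, adjusted p = 0.319), with detection on 1 of the UVD 4 h arrays. Of these 4, 0 passed in limma. The SEs of these log2 fold changes ran from 0.33 to 0.53, against 0.070 to 0.28 for the 10 members. Whether these strands differed from the members was not tested. The X-linked miR-363-3p, which also carries the miR-25/92 seed, was detected on 2 arrays, 1 of UVD 4 d and 1 of SO 4 h, and was not tested.

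Of 3 further miRNAs on the array that share a seed with a member, all with the miR-25/92 seed, 2 were tested. The array values of miR-32-5p, which is encoded apart from these clusters, were 24.1 and 27.8 in UVD 4 h, 31.7 and 22.8 in UVD 4 d, 24.8 and 27.8 in SO 4 h, and 30.2 and 31.7 in SO 4 d. Its UVD arrays overlapped between timepoints (log2 fold change 0.053, SE 0.18, adjusted p = 0.921). The normalized intensity of miR-92b-3p, another separate gene, ranged from 4.01 to 7.82 over the 8 arrays, and its log2 fold change between timepoints was -0.25 in the UVD group (SE 0.34, adjusted p = 0.758).

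Among the 412 other tested miRNAs, the 5 whose log2 values correlated most with the members' average over 8 arrays were miR-195-5p (r = 0.974), miR-497-5p (0.971), miR-142-3p (0.965), miR-532-5p (0.96) and miR-16-5p (0.956). All 5 shared the order of group means SO 4 h, UVD 4 h, SO 4 d, UVD 4 d, which is that of the members' average. They were picked for likeness to that average, so the shared order follows from the choice. For miR-497-5p, normalized intensity was 1014 and 1030 in UVD 4 h, 1503 and 1834 in UVD 4 d, 976 and 880 in SO 4 h, and 1161 and 1464 in SO 4 d. The log2 fold change over time was 0.70 in the UVD group (SE 0.15, adjusted p = 0.218) and 0.49 in the SO group (SE 0.15, adjusted p = 0.164).

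The marker lists of other cells differed in how their summed levels ran beside the members. The 6 microglia and leukocyte miRNAs, among them miR-142-3p and miR-223-3p, were all detected on all 8 arrays, and their summed normalized intensity was 3492 to 3542 in UVD 4 h, 3900 to 4207 in UVD 4 d, 3192 to 3214 in SO 4 h, and 3711 to 3874 in SO 4 d. The log2 of this sum had r = 0.938 with the members' average over 8 arrays. Between timepoints 6 of 6 had a higher mean at 4 d in the UVD group (median log2 fold change 0.45) and 5 of 6 in the SO group (0.34), 0 of 6 passed in limma in either group, and 1 passed averaged over both operations. The 6 choroid plexus and ciliated ependyma miRNAs, 5 of them detected on all arrays, summed to 5907 to 6040 in UVD 4 h, 7373 to 9156 in UVD 4 d, 5195 to 5378 in SO 4 h, and 6105 to 6420 in SO 4 d (r = 0.737). Of these 6, means were higher at 4 d for 6 in the UVD group (0 passed in limma) and 4 in the SO group (1 passed), and 1 passed averaged over both operations. The 4 erythroid miRNAs had higher means at 4 d for 4 of 4 in both groups, 0 of them passing, with sums of 740 to 944 in UVD 4 h, 874 to 1287 in UVD 4 d, 934 to 955 in SO 4 h, and 1018 to 1061 in SO 4 d (r = 0.197). For the neuron-enriched, oligodendrocyte, vessel and muscle lists r was 0.666, -0.596, -0.265 and 0.127. In the UVD group means were higher at 4 d for 0 of 4 oligodendrocyte, 1 of 4 vessel and 1 of 4 muscle miRNAs. In the SO group they were higher for 3 of 4, 3 of 4 and 4 of 4, with a median log2 fold change of 0.63 for muscle. Of the 7 neuron-enriched miRNAs 3 had a higher mean at 4 d in each group, with 0 passing in the UVD group, 2 in the SO group (median log2 fold change -0.19) and 1 averaged over both, while 0 of the other 3 lists' miRNAs passed over time. For comparison, 46.7% of all tested miRNAs had a higher mean at 4 d after UVD, and 50.2% after SO. Those passing in limma over time were 0% after UVD, 1.66% after SO and 1.66% averaged over operations. The part of other cells in the members' differences was not tested.

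**Figure D4:**
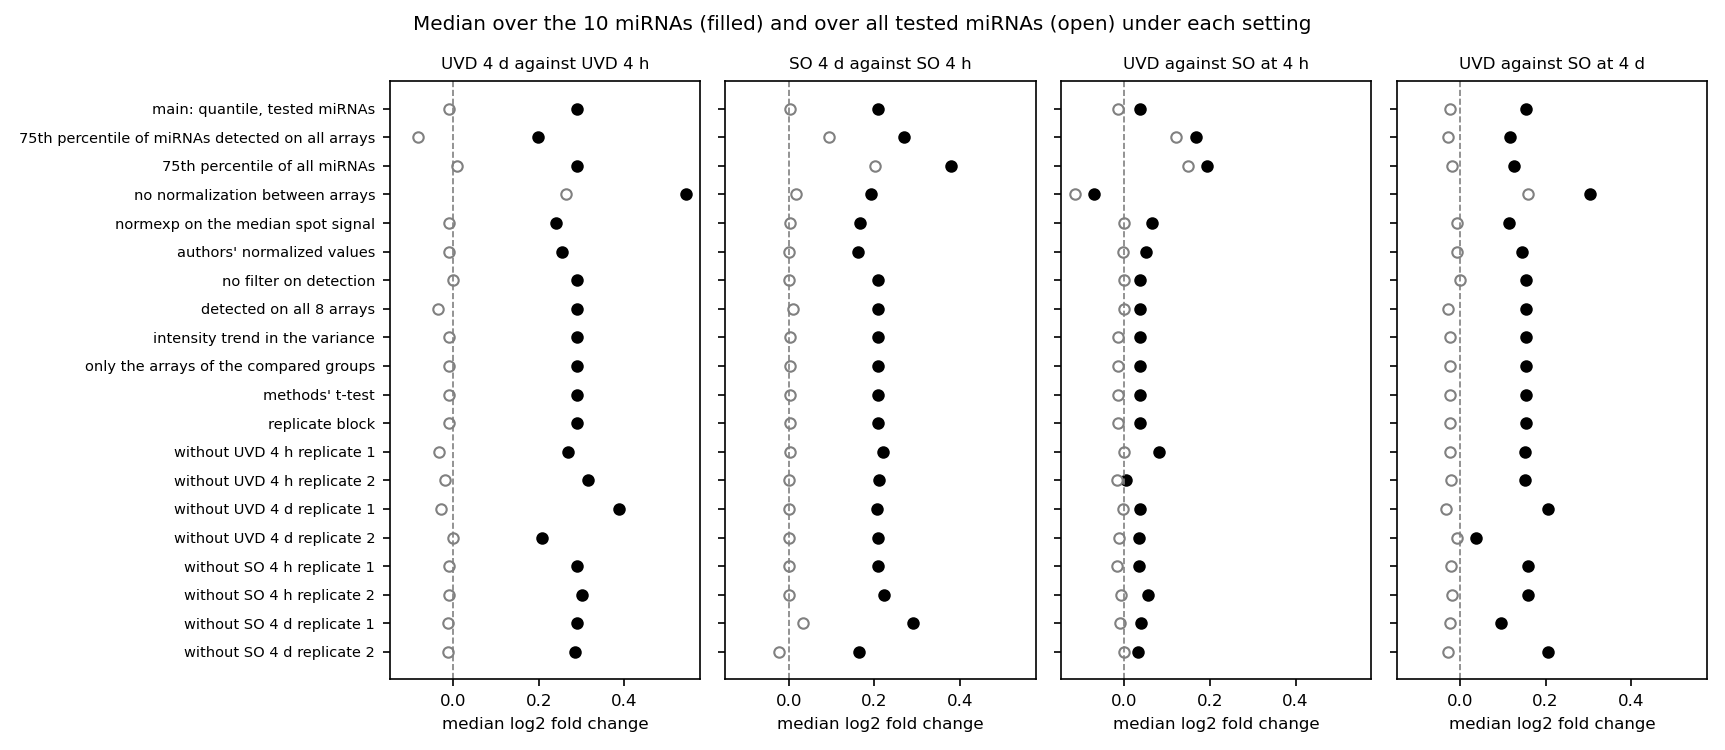
Median log2 fold change (horizontal axes) over the 10 miRNAs (filled points) and over all tested miRNAs (open points) under each processing setting (rows), for 4 d against 4 h in the UVD and SO groups and for UVD against SO at 4 h and 4 d. The members' median stays between 0.20 and 0.54 in the UVD group and between 0.16 and 0.38 in the SO group, and is 0.037 at 4 d between groups without UVD 4 d replicate 2.

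Under the 19 other settings, the log2 fold change between timepoints stayed above 0 for every member in the UVD group, in the SO group and averaged over both, in 190, 190 and 170 values. The same was not true between operations. At 4 h 23 of 190 values changed sign, at 4 d 7 of 190, and in the difference between the time changes 22 of 170, 0 of them past the threshold. All these totals include settings that changed only the filter, the variance model or the test. Such settings left each log2 fold change as it was, so their values could not change sign.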

How the data were processed

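The authors deposited Agilent Feature Extraction output, as scanner intensity per spot with the total gene signal per miRNA, and a table of normalized intensity values on a linear scale. Per the labels, total RNA was labelled with Cyanine3-pCp, and per the file headers the scans were read with Feature Extraction 10.7.3.1. Ranks of the authors' table follow the median spot signal, and the methods give quantile normalization.

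The total gene signal was quantile normalized over 8 arrays, with values under 1 raised to 1 before the log2 transform. A miRNA was tested if some group had it detected on each of its arrays, which 422 of 758 met. The limma package (version 3.58.1, R 4.3.3) was fitted to the 4 group means with moderated variances, and p-values of 7 contrasts were adjusted by Benjamini-Hochberg over 422 miRNAs (threshold 0.05). For the values by probe, each probe's signal was multiplied by the normalization factor of its miRNA on that array. The 2 probes of a miRNA therefore share 1 normalization. The fit was also run on simulated arrays with known changes. The simulated miRNAs varied independently, so this run does not measure power for members that vary together. P-values measure the spread between 2 pools per group.

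Named miRNAs were all members, other strands of their hairpins, miRNAs sharing a seed, and the 5 most alike by Pearson's r. Members and lists were chosen with earlier results of these data known. Alternatives were 2 other scalings, no normalization, normexp on median spot signals (offset 50, no mean signal being used), the authors' values, 2 other filters, a variance trend, only the compared arrays, the methods' t-test, a replicate block and each array left out. Without UVD 4 d replicate 2, the count of members highest in that group was added after seeing the data.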

Additional observations from a re-analysis of the deposited data

How the results depend on the processing

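Medians over the 10 members stayed above 0 between timepoints under all alternatives. Those that changed only the filter, the variance model or the test could not move these medians. When arrays were scaled by the 75th percentile of miRNAs detected on every array, the median was 0.20 in the UVD group, 0.17 between operations at 4 h and -0.048 for the difference between the time changes, beside -0.081, 0.12 and -0.11 over all tested miRNAs. By the 75th percentile of the whole array it was 0.38 in the SO group, 0.19 at 4 h, 0.33 averaged over operations and -0.064 for the difference, beside 0.20, 0.15, 0.12 and -0.13 over all. Without normalization the medians were 0.54 in the UVD group, -0.070 at 4 h, 0.30 at 4 d, 0.37 averaged over operations and 0.38 for the difference, beside 0.26, -0.11, 0.16, 0.16 and 0.31 over all. The cause was not tested.

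Members past the threshold numbered 1 in the SO group with the authors' values, and, averaged over operations, 1 by the 75th percentile of the whole array, 5 with normexp, 4 with the authors' values and 2 with a variance trend. Leaving out 1 array left its group with a single array, and calls from those fits are not counted here. The medians then ran from 0.21 to 0.39 in the UVD group, 0.16 to 0.29 in the SO group, 0.037 to 0.21 at 4 d, 0.030 to 0.14 between operations averaged over timepoints, and -0.015 to 0.19 for the difference.

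At 4 d between operations, miR-92a-3p was at -0.049 by the 75th percentile of miRNAs detected on every array, at -0.039 by that of the whole array and at -0.0074 with normexp. Leaving out 1 array moved this difference between -0.015 and 0.20 for miR-19a-3p, -0.0081 and 0.28 for miR-20a-5p, -0.0018 and 0.16 for miR-19b-3p, and -0.022 and 0.13 for miR-25-3p.

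Replicate numbers were taken from the sample titles, since the source names give number 1 to all 4 h arrays and 2 to all 4 d arrays. Numbers of different pools share only a number (correlations of deviations from -0.255 to 0.193). With the replicate block 0 members passed in every comparison, and at an unadjusted p under 0.05 members higher at 4 d were 10 averaged over operations, 9 after UVD and 5 after SO, against 45, 34 and 35 of all 422 tested miRNAs. The methods' t-test was undefined for 1 member at 4 d and 1 in the UVD group, whose arrays were tied. The 2 arrays per group limit all precision.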
